A study of Rattus norvegicus with 4 samples.

Results

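A set of 10 myelin genes was followed in cultured olfactory ensheathing cells of the rat, glia that accompany olfactory axons to the brain. The genes were Mbp, Cnp, Cldn11, Mag, Mal, Gjb1, Egr2, Pmp2, Prx and Gldn, taken by name. By the gene name of the array, 8 of the 10 were found, with 9 of 41012 probes. Cnp was found as Cnp1 through its RefSeq accession, and Pmp2 as LOC688790 through its gene ID, each with 1 probe. Of the 10 genes, 9 passed the filter on dim probes, among 31868 gene names tested, and Pmp2 did not.

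The mucosa group was ensheathing cells from the olfactory mucosa of male Fischer rats, labelled with Cy5. The bulb group was the same cell type from olfactory bulbs, also of male Fischer rats, labelled with Cy3, and 1 culture protocol served both tissues. Each of 4 Agilent arrays held 1 mucosa and 1 bulb sample, labelled as 4 biological replicates and called paired, from 250 ng of PCR-amplified cDNA per channel. The labels do not say what pairs the samples, and ages and passages are not given in the sources used here. Mucosa cells always carried Cy5, so the effects of dye and of tissue cannot be told apart. On each array and in each colour 82.8% to 91.1% of spots passed as well above background, so this flag alone sets few genes apart, and the number of arrays limits the precision. Median Cy5 signals before normalization were 842, 839, 567 and 598 in replicates 1 to 4. Log2 ratios over the gene names tested correlated between arrays at 0.35 to 0.54.

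Myelin is a stack of glial membrane wrapped around an axon, built by Schwann cells in peripheral nerve and by oligodendrocytes in the central nervous system. Basic proteins such as Mbp hold the cytoplasmic faces of the membrane together, junction proteins seal or couple its layers, and other proteins bind it to the axon, to the basal lamina or to the node of Ranvier. Olfactory ensheathing cells are related to Schwann cells, express part of this gene set, and in the olfactory nerve enclose bundles of thin axons without forming myelin.

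The calls described here rest on 4 probes, and a further Mbp probe gave another view of that gene. Their designed sequences are shown because each value is the signal of 1 such oligonucleotide of 60 bases. The Cldn11 probe lies at chr2:116627458-116627517, minus strand, and the Cnp probe at chr10:89524880-89524939. The Gldn probe lies at chr8:57838875-57838934, and the brighter Mbp probe at chr18:79055910-79055969. The dimmer Mbp probe has coordinates that span 1939 bases, chr18:79044276-79046214, so its target is split in the genome, while the other targets each span 60 bases. The build is rn4 by the headers of the files, and strands other than that of Cldn11 are plus. An annotation of exons was not used here. The Cldn11, Cnp and dimmer Mbp probes are given whole, and 30 bases of the other probes, all in lower case as no base is singled out.
Cldn11: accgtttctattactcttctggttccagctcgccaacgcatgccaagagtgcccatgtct
Cnp: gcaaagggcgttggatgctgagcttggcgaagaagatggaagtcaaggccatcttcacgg
Mbp, dimmer probe: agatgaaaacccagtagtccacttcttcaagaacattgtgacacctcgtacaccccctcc
Mbp, brighter probe: tgcaccaaatagctagttagagcagaccct
Gldn: gctggaagttgaaatggataacatctggtg

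The comparison asks which of the 10 genes were expressed at another level in mucosa than in bulb cells. Mbp, Cnp and Cldn11 were lower in mucosa cells, Gldn was higher, and Mag, Mal, Gjb1, Egr2 and Prx did not pass the test. Of the 8 genes found by name, 2 were called lower and 1 higher by limma with Benjamini-Hochberg adjustment over all gene names and a threshold of 0.05. Cnp, found by accession, was also called lower. Over all gene names 3.39% were called lower and 3.24% higher, together 6.62%. With median centring in place of loess 59.6% of the calls were toward higher values, against 48.9% as reported. The median log2 ratio of the 9 tested myelin genes, mucosa over bulb, was 0.081, against 0.012 over all gene names. The 5 genes without a call had ratios between -0.064 and 0.57. All 4 ratios were negative for Mbp, Cnp and Cldn11, as for 15.7% of gene names, and positive for Gldn, as for 17.8%. In these bulk cultures, fewer cells of a type and less RNA per cell cannot be told apart.

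**Figure D1:**
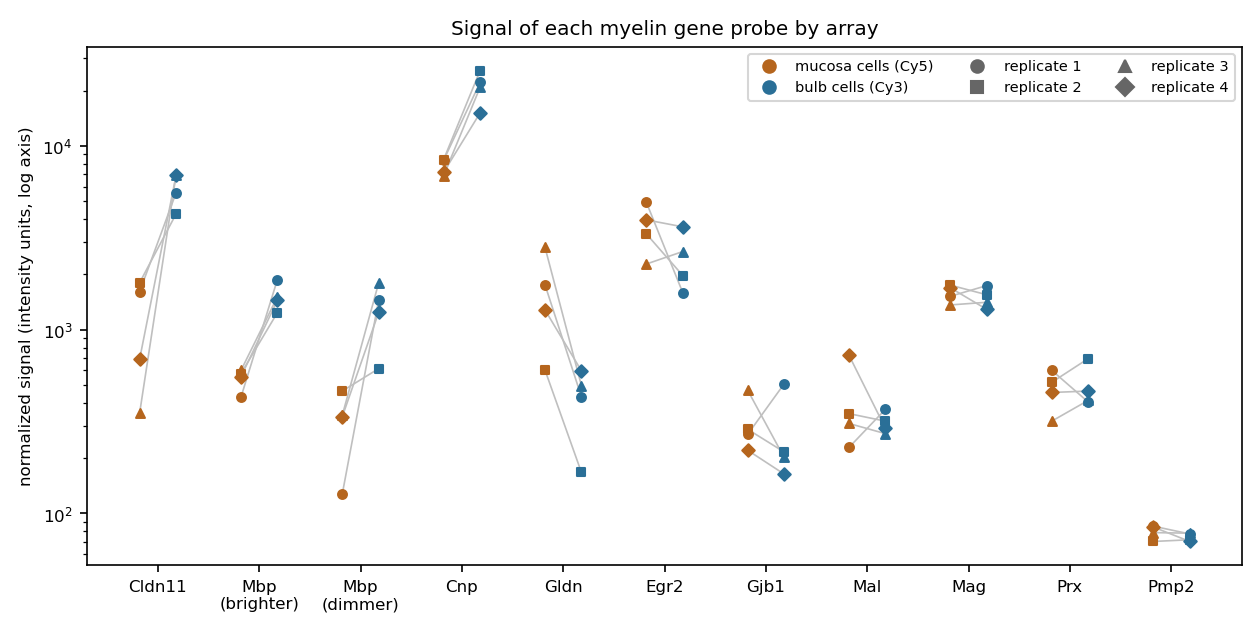
Normalized signal (intensity units, log axis) of each probe on each array, with mucosa cells (Cy5, brown) left of bulb cells (Cy3, blue), grey lines joining the samples of 1 array and marker shapes giving the replicate. Cldn11, Mbp and Cnp were lower and Gldn higher in mucosa cells on all 4 arrays, and Pmp2 stayed between 70.4 and 85.4 in both groups.

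Mbp encodes myelin basic protein, a major protein of compact myelin in central and peripheral nerve. Its brighter probe had normalized signals of 429, 576, 599.95 and 555 in mucosa cells of replicates 1 to 4, against 1874, 1238, 1509.5 and 1444 in bulb cells. The highest mucosa signal was below the lowest bulb signal, as it was for 19.8% of all gene names in 1 direction or the other. The log2 ratio was -1.49 ± 0.44 (SD, n = 4), which is 2.80-fold lower in mucosa cells, with limma adjusted p = 0.0216 and a 95% interval from -2.07 to -0.90. The call was lost with any 1 array left out, with limma adjusted p from 0.0600 to 0.0740, and with a trended robust variance (0.0691).

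The dimmer Mbp probe had signals of 128, 464, 342 and 336 in mucosa cells, against 1456, 615, 1804 and 1247 in bulb cells. Here too the groups did not overlap, but the pairs differed more, with log2 ratios of -3.51, -0.41, -2.40 and -1.89. Their mean was -2.05 ± 1.29 (SD, n = 4), and this probe was not called in a limma fit over 36713 single probes (adjusted p = 0.0611), where 3.42% of probes were called lower and 3.13% higher, together 6.55%. The dimmer probe minus the brighter gave -1.38, 0.70, -1.07 and -0.51 in log2 ratio, so neither probe had the more negative ratio on every array. Mbp has several transcript variants in RefSeq, and which of them each probe detects was not tested.

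Cnp encodes cyclic nucleotide phosphodiesterase, an enzyme of the cytoplasm-rich parts of myelin that is also present in immature and non-myelinating glia. Its signals were 8352, 8422, 6883 and 7184 in mucosa cells, against 22173, 25697, 20846 and 15117 in bulb cells. The groups were far apart compared with their spread, and Cnp had the smallest SD of the 4 called genes. The log2 ratio was -1.42 ± 0.25 (SD, n = 4), 2.68-fold lower in mucosa cells, with limma adjusted p = 0.0162. Without replicate 1, 2 or 3 the call was lost (limma adjusted p = 0.0698, 0.0846 and 0.0550), and without replicate 4 it was kept at 0.0389. With a trended robust variance it was lost (0.0624).

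Cldn11 encodes a claudin that forms the tight junction strands of central myelin, and outside myelin it belongs to the barriers of the testis and the arachnoid. Its signals were 1608, 1801, 351 and 691 in mucosa cells, against 5559, 4262, 6951 and 6909 in bulb cells. The mucosa samples differed up to 5.13-fold among themselves and the bulb samples up to 1.63-fold. The groups did not overlap, as for 19.8% of all gene names. The log2 ratios were -1.79, -1.24, -4.31 and -3.32, with a mean of -2.67 ± 1.40 (SD, n = 4), 6.35-fold lower in mucosa cells (limma adjusted p = 0.0358). Only 0.847% of all gene names had a mean ratio at least as far from 0, while 5.26% had a larger SD. The call was lost without each of the 4 arrays in turn (limma adjusted p from 0.0524 to 0.118), with no filter on dim probes (0.0542), by the deposited value table (0.0635) and with a trended robust variance (0.0635).

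Gldn encodes gliomedin, a protein of Schwann cell microvilli that binds axonal adhesion molecules and gathers sodium channels at peripheral nodes of Ranvier. Its signals were 1757, 604, 2811 and 1282 in mucosa cells, against 431, 167, 495 and 597 in bulb cells. The lowest mucosa sample lay just above the highest bulb sample, and both came from different arrays, so the groups were close to touching although each pair differed. Replicate 2 was lowest in both channels. The log2 ratios were 2.03, 1.85, 2.50 and 1.10, with a mean of 1.87 ± 0.58 (SD, n = 4), 3.66-fold higher in mucosa cells (limma adjusted p = 0.0164, 95% interval from 1.21 to 2.54). With the channels fitted as unpaired samples, without the replicate block, the ratio stayed and limma adjusted p was 0.0576. The call was also lost without replicate 1 or 2 (0.0778 and 0.0746).

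**Figure D2:**
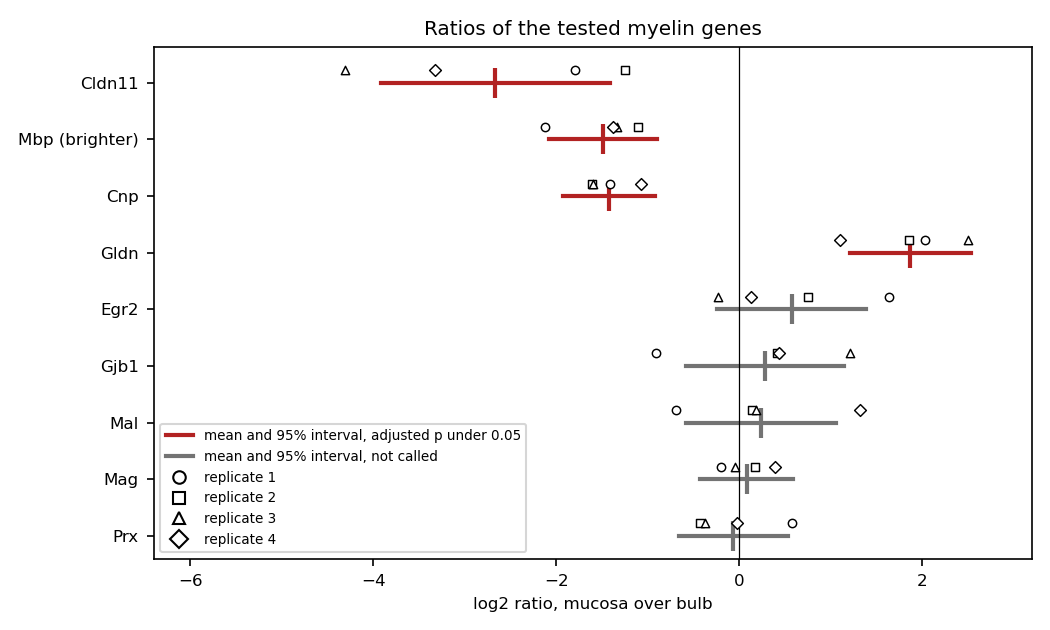
Log2 ratio of mucosa over bulb for the 9 tested myelin genes, with open markers for the 4 arrays, a tick for the mean and a bar for the 95% interval of the moderated fit, red where the adjusted p was under 0.05. Cldn11 spreads from -4.31 to -1.24, while the ratios of Cnp lie between -1.61 and -1.07.

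Mag, Prx and Gjb1 belong to the glial side of the axon contact, to the outer Schwann cell membrane and to the channels through non-compact myelin. Mag, the myelin-associated glycoprotein that faces the axon, had signals of 1519.6, 1748, 1363 and 1690.1 in mucosa cells, against 1738, 1548, 1410.0 and 1289 in bulb cells. Its groups overlapped, and its log2 ratio was 0.081 ± 0.26 (SD, n = 4), with limma adjusted p = 0.842 and a 95% interval from -0.42 to 0.59. Mag was among the least variable of the myelin genes, as 85.4% of all gene names had a larger SD.

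Prx encodes periaxin, which links the Schwann cell membrane to the dystroglycan complex of the basal lamina. It had signals of 601, 517, 318 and 455 in mucosa cells, against 404, 696, 412 and 464 in bulb cells. The order of the groups differed between arrays, with a log2 ratio of -0.064 ± 0.46 (SD, n = 4), limma adjusted p = 0.895 and an interval from -0.66 to 0.53. Gjb1, which encodes a connexin of Schwann cells and oligodendrocytes, had signals of 269, 287, 469 and 221 in mucosa cells, against 507, 216, 202 and 164 in bulb cells. Replicate 1 went the other way from the other three, and the log2 ratio was 0.29 ± 0.88 (SD, n = 4), with limma adjusted p = 0.663 and an interval from -0.58 to 1.15.

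Mal encodes a raft proteolipid of myelin and of polarized epithelia. Its signals were 229, 349, 309 and 726 in mucosa cells, against 369, 318, 272 and 290.2 in bulb cells. Replicate 4 had the highest mucosa value, and the log2 ratio was 0.24 ± 0.83 (SD, n = 4), with limma adjusted p = 0.706 and an interval from -0.59 to 1.06. Egr2 encodes the zinc finger factor Krox20, which Schwann cells need to form myelin and which activates genes such as Prx and Gjb1.

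Egr2 had signals of 4941, 3322, 2276 and 3958 in mucosa cells, against 1588, 1970.4, 2662 and 3627 in bulb cells. Replicates 1, 2 and 4 were higher in mucosa cells and replicate 3 lower, and the groups overlapped. The log2 ratio was 0.57 ± 0.82 (SD, n = 4), with limma adjusted p = 0.357 and an interval from -0.24 to 1.39. An interval this wide holds both no difference and one of more than 1 on the log2 scale, as do those of Gjb1 and Mal.

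Pmp2 encodes a fatty acid-binding protein of peripheral myelin. Its probe gave 85.4, 70.4, 78.7 and 84.5 in mucosa cells, against 77.4, 72.0, 78.1 and 70.5 in bulb cells, where the background correction itself adds an offset of 50. The well above background flag was set on 1 of 4 arrays for mucosa cells, against 0 of 4 for bulb cells. The groups overlapped, the gene was not tested, and no fold is given for it. The other 9 genes were well above background on all 4 arrays in both channels, and none of their spots was saturated. A probe with this flag on all arrays in both channels was found for 27740 of the 31868 gene names.

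The upstream 250 bases of 3 called genes are shown as the regions next to their starts where factors of glia such as Sox10 and Egr2 are known to act on many myelin genes. RefSeq windows of the GRCr8 build were at hand for 9 of the 10 genes, 10 windows in all with 2 starts for Mbp. Both strands were searched for the letters ACAAAG and ACAATG, 2 forms of the site bound by Sox proteins, and for GCGTGGGCG, a site of Egr proteins. One of the Sox forms was found in 3 of the 10 windows, those of Cnp, Mag and 1 start of Mbp, against 25.3% of all 33469 windows (16.3% for ACAAAG and 11.1% for ACAATG). The Egr form was found in 0 of the 10, against 0.478% of all windows. A match of this kind is a description of letters, not a site. The windows are Cnp at chr10:86011254-86011503, plus strand, Cldn11 at chr2:114149540-114149789, minus strand, and Gldn at chr8:63575020-63575269, plus strand, with a Sox match in capitals.
Cnp: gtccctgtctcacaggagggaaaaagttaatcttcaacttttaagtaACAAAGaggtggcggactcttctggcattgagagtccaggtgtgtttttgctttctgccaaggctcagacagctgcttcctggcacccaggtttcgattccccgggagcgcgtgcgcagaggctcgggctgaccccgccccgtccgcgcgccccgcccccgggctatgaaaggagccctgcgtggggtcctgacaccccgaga
Cldn11: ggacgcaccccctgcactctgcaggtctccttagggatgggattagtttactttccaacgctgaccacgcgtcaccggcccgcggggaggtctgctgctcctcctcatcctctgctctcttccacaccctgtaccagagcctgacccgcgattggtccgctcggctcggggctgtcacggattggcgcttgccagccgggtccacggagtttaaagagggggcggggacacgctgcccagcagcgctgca
Gldn: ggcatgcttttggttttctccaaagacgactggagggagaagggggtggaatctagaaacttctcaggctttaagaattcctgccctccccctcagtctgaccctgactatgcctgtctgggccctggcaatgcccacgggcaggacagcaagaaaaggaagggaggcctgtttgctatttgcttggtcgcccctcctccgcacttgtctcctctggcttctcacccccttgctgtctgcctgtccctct

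The other genes of myelination were counted in 3 lists. Over all gene names 3.24% were called higher and 3.39% lower, so a count of 0 in lists this short is near that share. Of 16 tested genes of myelin structure and lipids, 0 were higher and 2 lower in mucosa cells, with a median log2 ratio of 0.14. Of these, Ugt8, which makes the galactolipids of myelin, had a log2 ratio of -1.12 ± 0.20 (SD, n = 4; limma adjusted p = 0.0294). Ugt8 had the background flag in mucosa cells on 2 of 4 arrays, against 4 of 4 for bulb cells, so it passed the filter only through the bulb channel and its ratio rests on a dim mucosa signal. It lost its call without each array in turn (limma adjusted p up to 0.118) and without the replicate block (0.0677). By the deposited value table its ratio was -2.57. With a trended robust variance it was not called (limma adjusted p = 0.0986).

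Of 18 tested regulators of myelination, 0 were higher and 2 lower, with a median of 0.094. Sox10 had -1.87 ± 0.55 and Erbb2, a subunit of the neuregulin receptor, had -1.58 ± 0.24 (SD, n = 4; limma adjusted p = 0.0152 and 0.0111). The other 16 regulators were not called. Differences between Sox10, Erbb2, Egr2 and the other myelin genes were not tested. The Sox10 call was lost without replicate 1, 2 or 4 (up to 0.0753), and the Erbb2 call without replicate 1 or 2 (0.0553 and 0.0551). With a trended robust variance Sox10 was kept at 0.0490 and Erbb2 was lost at 0.0510.

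Of 21 tested partners of myelin at the node, the axon and the basal lamina, 0 were higher and 4 lower, with a median of -0.30. Cadm1 and Cadm4 (Igsf4a and Igsf4c on the array), adhesion molecules of the nectin-like family of which Cadm4 lies on the Schwann cell side of the internode, had -2.03 ± 0.35 and -1.34 ± 0.38 (SD, n = 4; limma adjusted p = 0.00678 and 0.0255). Dag1, the dystroglycan gene, had -1.13 ± 0.16 (limma adjusted p = 0.0267) by the brightest of its 3 tested probes. The mean over the Dag1 probes gave -0.90 (limma adjusted p = 0.0456). Ezr (Vil2 on the array), the cytoskeletal linker ezrin of Schwann cell microvilli, was also lower at -1.11 ± 0.21 (limma adjusted p = 0.0305) and is named after its value was seen. That value is from the brighter of 2 tested Ezr probes, and whether the Ezr call holds under other settings is not reported here. Cadm1 was called with any 1 array left out (limma adjusted p up to 0.0468), and Cadm4 and Dag1 were lost each time (up to 0.118 and 0.0994). By the deposited value table Cadm4 and Dag1 were not called either (0.0590 and 0.0533), nor with a trended robust variance (0.0821 and 0.0952), nor with median centring in place of loess (0.0529 and 0.0623), where their log2 ratios were -0.97 and -0.84.

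Beside Dag1, which was called lower, other partners of gliomedin and periaxin were singled out after their values were seen, and these did not pass. Nfasc and Nrcam, which encode the axonal molecules that gliomedin binds, had log2 ratios of -0.31 ± 0.98 and 0.39 ± 0.75 (SD, n = 4; limma adjusted p = 0.666 and 0.496). Drp2, which joins periaxin to dystroglycan, had 0.061 ± 0.70 (limma adjusted p = 0.920). Differences between these genes were not tested.

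**Figure D3:**
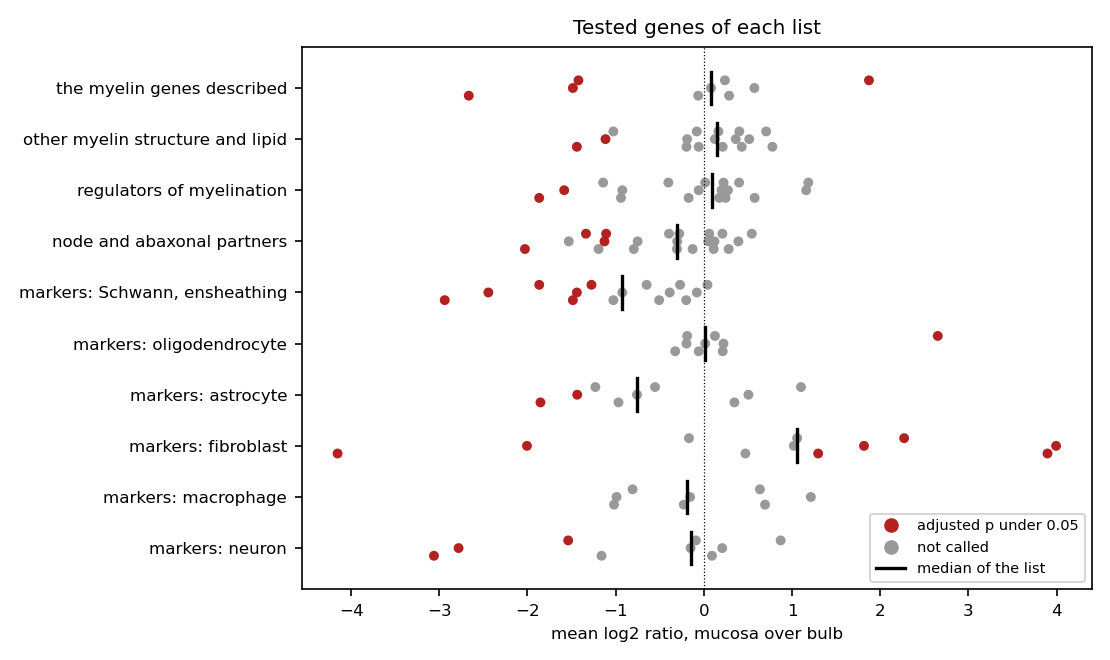
Mean log2 ratio of mucosa over bulb for each tested gene of each list, red where the adjusted p was under 0.05, with a black bar at the median of the list. Of the 9 myelin genes described, 3 red points lie below 0 and 1 above it.

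Markers of the cell types that such cultures can hold were counted in the same fit. There 3.24% of all gene names were called higher and 3.39% lower, so a count of 0 in a short list is near that share. Of 15 tested markers of Schwann and ensheathing glia, 0 were higher and 6 lower, with a median log2 ratio of -0.93. Their summed signal, to which the brightest genes add most, ranged from 39046 to 48674 in mucosa cells, against 66566 to 94205 in bulb cells. Each marker was well above background on all arrays in both groups, as was a probe of 27740 of the 31868 gene names. This list shares genes, among them Sox10, with the lists of other myelin genes. Of 11 fibroblast markers, 5 were higher and 2 lower, with a median of 1.06 and sums from 312799.9 to 355655 in mucosa cells, against 126709 to 186796 in bulb cells. The part of either shift in the ratios of Mbp, Cnp, Cldn11 and Gldn was not tested.

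Of 9 tested oligodendrocyte markers 1 was higher and 0 lower, with a median of 0.014. That 1 was Cspg4, also a pericyte marker, at a log2 ratio of 2.65, named after its value was seen. Most of the oligodendrocyte list, with Mog, Mobp, Olig1 and Olig2, was already counted in the lists of other myelin genes. Sums over the oligodendrocyte list ranged from 13762 to 19182 in mucosa cells, against 9760.1 to 12308 in bulb cells. The brightest genes add most to such a sum, so it need not follow the median. In the astrocyte list 2 of 9 markers were lower and 0 higher, with a median of -0.76 and sums from 4141 to 6314 in mucosa cells, against 7080.2 to 8987 in bulb cells. The 2 lower ones, Gfap and Slc1a3, named after their values were seen, had log2 ratios of -1.44 and -1.85. Slc1a3 had the background flag in mucosa cells on 3 of 4 arrays. The 7 other astrocyte markers were not called, and 3 of the 9 had ratios above 0. Neuronal markers had 0 higher and 3 lower of 9, with a median of -0.15 and sums from 2474 to 3453 in mucosa cells, against 6220.5 to 7727 in bulb cells. The 3 lower ones, named after their values were seen, were the neurofilament genes Nefl, Nefm and Nefh (log2 ratios of -2.78, -3.06 and -1.54). The 6 other neuronal markers were not called, and 3 of the 9 had ratios above 0. Macrophage markers had 0 higher and 0 lower of 8, with a median of -0.19 and sums from 28561 to 39328 in mucosa cells, against 15899.5 to 32667 in bulb cells. The SDs of their log2 ratios ran from 0.27 (Laptm5) to 2.51 (Cd68), so these counts do not show equal levels. Cd68, named after its values were seen, had log2 ratios of 1.84, 0.75, -2.34 and -3.48 in replicates 1 to 4. All 9 oligodendrocyte markers tested, among them Mog, Mobp, Olig1 and Olig2, were well above background on all arrays in both groups. The same held for at least 1 probe of 27740 of the 31868 gene names, so it does not set the list apart. The part of these lists in the ratios of the myelin genes was not tested.

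**Figure D4:**
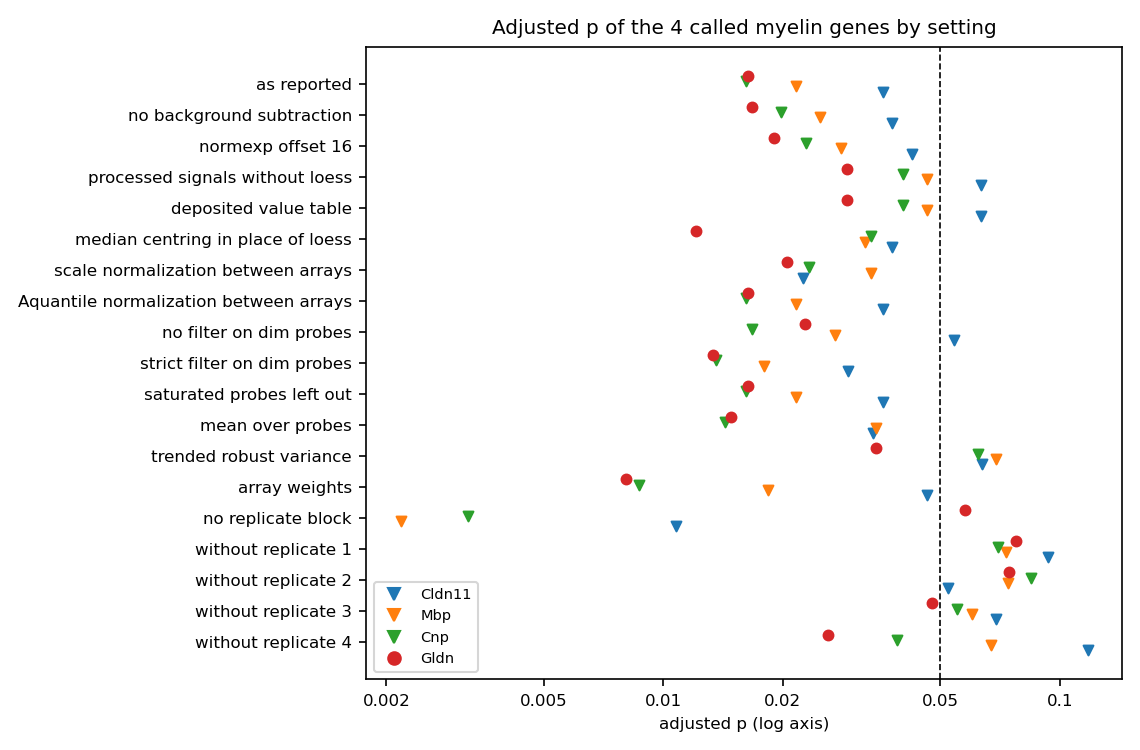
Adjusted p (log axis, dashed line at 0.05) of the 4 called myelin genes as reported and under each other setting, with triangles where mucosa cells were lower and circles where they were higher. Points of Mbp, Cnp and Cldn11 cross the line with a trended robust variance, and those of all 4 genes cross it without replicate 1 or without replicate 2.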

How the data were processed

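The data were 4 Agilent rat arrays with 2 colours, 1 pair of mucosa (Cy5) and bulb (Cy3) cells on each. Scans were quantified with Feature Extraction, version 10.5.1.1 per the file headers but 9.1 per the submitters' processing notes. The intensity columns used, as deposited, are the scanner's linear means and local backgrounds, not normalized. The value table that the authors deposited holds log10 ratios of Cy5 over Cy3, equal within 1e-06 to the scanner files at all 45018 features of each array, with column medians of 0 to 0.000422 and 0 columns without a sample. The cDNA was amplified by PCR, per the labels' protocols, which can change transcript ratios.

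In limma 3.58.1 (R 4.3.3), normexp with an offset of 50, which understates folds of dim genes, was followed by loess within each array. Control and outlier spots had weight 0 in the loess, and outlier spots were then left out. The filter on dim probes asked for the scanner's well-above-background flag on 3 or more arrays in the same colour, which left 36713 probes with a ratio on all arrays. The brightest probe stood for each gene name. The mean log2 ratio was tested against 0 with lmFit and eBayes (6.36 degrees of freedom), which pairs the channels of an array. The fit was tested on simulated ratios. All arrays shared 1 slide and scan. Log2 ratios are mucosa over bulb.

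The named genes were all 10 members with every probe and, from the lists of myelin structure and lipids, of regulators and of node partners, the 3 called genes of largest ratio, of which 1 is not reported here. The members and lists were chosen with earlier results of these data known. Alternatives covered background, signals, normalization, filter, saturation, probe choice, variance, pairing and each replicate left out. Sequences are from the scanner files and from RefSeq (GRCr8). Tools were Python 3.11.15, pandas 2.3.3, numpy 2.4.6 and matplotlib 3.10.9.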

Additional observations from a re-analysis of the deposited data

Results flagged for a closer look

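Sox10 had log2 ratios of -2.15, -2.14, -1.04 and -2.14 in replicates 1 to 4. The value of replicate 3, -1.04, lay far from the other three, with a gap of 0.986 of the whole range. Such a gap would mark about 1 in 20 groups by chance, and 1 of 37 groups of values was marked here.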

How the results depend on the processing

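In 14 settings other than leaving out an array, Mbp, Cnp, Cldn11 and Gldn kept their direction. Several settings left these ratios as reported, so they do not bear on direction. These were both other filters, saturated probes left out, Aquantile normalization, the trended robust variance and no replicate block. The mean over probes could change only Mbp among these genes. The deposited value table repeats the processed signals, so these settings are not separate checks. Mbp, Cnp and Gldn stayed called in 13 each and Cldn11 in 10. The 2 members found by name and called lower became 1 with the processed signals, with the deposited value table and with no filter on dim probes, each time by loss of Cldn11, and 0 with a trended robust variance, where 2 had an unadjusted p under 0.05. The 1 member called higher became 0 with no replicate block (1 at an unadjusted p under 0.05), where 3150 gene names were called against 2110. Gene names called fell to 898 with the trended robust variance. With 1 array left out they numbered 562 to 1061, the members called lower 0 in each case (2 at an unadjusted p under 0.05) and those called higher 0 to 1. Fewer arrays leave fewer degrees of freedom. Median centring gave 59.6% of calls as higher against 48.9%. The ratio of Prx turned to 0.058 with median centring. With 1 array left out, Prx ranged from -0.28 to 0.057 (0.040 without replicate 3), Gjb1 from -0.024 to 0.69, Mag from -0.023 to 0.17 and Mal from -0.12 to 0.55, so the signs of these 4 were not stable. None of these was called, and the causes of changes were not tested. Aquantile normalization and saturated probes left out gave the same 2110 calls, as the first changes only mean intensity.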
